A study of Mus musculus with 6 samples.

Results

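The myeloid and macrophage transcription factors described here are 39 of the 24445 genes in the count table. They were chosen by name from knowledge of the lineage, with earlier results of these data known. They comprise 5 ETS and RUNX genes, 4 C/EBP genes, 5 other bZIP genes, 5 interferon regulatory factors (IRFs), 7 zinc finger genes, 5 bHLH and ID genes, 4 genes of the MiT/TFE family, 3 NF-kB genes and the histone demethylase gene *Kdm6b*. RNA was sequenced from bone marrow-derived macrophages (BMDMs) of female mice, which were differentiated for 7 days in L929-conditioned medium and then received IL-4 at 100 U/mL for 24 h. The 3 Ctrl libraries came from Acly fl/fl littermates on a C57Bl/6J background, labelled WT. The 3 AclyM-KO libraries, labelled KO, came from Lyz2-Cre Acly fl/fl mice, in which loxP sites flank exon 9 of *Acly* and Cre is made from the *Lyz2* locus in myeloid cells. Both groups thus carried the floxed allele, and both received IL-4. Naive BMDMs were not analysed here. The study describes its replicates as biological in one place and as technical, from pooled mice, in another, so the p-values below measure the spread between libraries, which may be technical.

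Macrophage identity is laid down by a small set of DNA-binding proteins. PU.1, the product of *Spi1*, opens enhancers together with C/EBP and RUNX factors, and signal-dependent factors such as the IRFs, NF-kB, AP-1-like bZIP proteins and early response zinc finger proteins then act on those enhancers. In macrophages exposed to IL-4, STAT6 is the first responder, and EGR2, KLF4, IRF4, MYC and the demethylase JMJD3, encoded by *Kdm6b*, are known as downstream regulators of the alternatively activated state.

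The libraries held 12151975 to 14739689 counts in Ctrl and 14745614 to 15587283 in AclyM-KO on the transcript kept for each gene. *Acly*, the gene deleted by design, had 4917, 3925 and 4606 counts in Ctrl against 2140, 2078 and 1978 in AclyM-KO, with a log2 fold change of -1.27 (standard error, SE, 0.0533, adjusted p = 5.22e-10 in edgeR). Counting was blind to strand, since *Xist* and its antisense gene *Tsix* differed by at most 2 counts in any library, so genes overlapping on opposite strands share reads. Of 12 macrophage markers, 11 were tested, with 2 higher and 4 lower at an adjusted p under 0.05, and their summed level was 20184 to 21128 CPM (counts scaled to the library size) in Ctrl and 17694 to 17983 in AclyM-KO. The higher ones were *Adgre1* (log2 fold change 0.33, edgeR adjusted p = 2.27e-05) and *Trem2* (0.29, adjusted p = 0.000263). Besides *Lyz2*, the lower ones were *Mertk* (-0.73, adjusted p = 2.56e-07), *Itgam* (-0.28, adjusted p = 0.00113) and *Csf1r* (-0.20, adjusted p = 0.00366). *Cx3cr1* was at 0 throughout. *Lyz2*, whose locus carries Cre, fell by 0.67 on the log2 scale. Its level went from 6595 ± 515 CPM in Ctrl to 4142 ± 120 CPM in AclyM-KO (SD, n = 3 each), which was most of the fall in the sum. The 12 neutrophil and precursor markers summed to 33.7 to 36.3 CPM in Ctrl and 64.3 to 68.6 in AclyM-KO, and 3 of the 5 tested were higher, among them *Mmp8* (log2 fold change 1.25). *Mmp8* alone went from 16.9 ± 2.18 to 40.1 ± 1.77 CPM (SD, n = 3 each), most of the rise in that sum. The defining gene *Ly6g* had at most 1 count in any library and *Elane* at most 2. The 10 dendritic cell markers summed to 6.01 to 7.89 CPM in Ctrl and 11.8 to 13.5 in AclyM-KO. Of the 3 that could be tested, *Kit* (log2 fold change 1.26) and *Cd209a* (1.65) were higher and *Zbtb46* had a log2 fold change of 0.08 (adjusted p = 0.886). *Kit* alone went from 3.19 ± 0.829 to 7.61 ± 0.618 CPM (SD, n = 3 each), which was most of the rise in the sum. *Cd209a* was scarce, at 3, 3 and 6 counts in Ctrl against 12, 16 and 15 in AclyM-KO. *Flt3* had at most 1 count in any library. The 7 monocyte markers summed to 12.1 to 16.1 CPM in Ctrl and 13.7 to 17.5 in AclyM-KO, and lymphocyte, mast cell and stromal markers summed to at most 6.15 CPM. In bulk RNA a change in the number of cells of a type cannot be told apart from a change in RNA per cell, and the part of these markers in the results below was not tested.

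Most of these regulators were expressed, and many of them shifted by small amounts in AclyM-KO. Genes were tested with edgeR, and a gene was called when its adjusted p was under 0.05 and its log2 fold change lay beyond 0.58 in either direction, positive values meaning higher in AclyM-KO. Of the 38 members with enough counts to test, 0 were called higher, where 2.98% of the 12023 genes tested were, and only *Kdm6b* was called lower, where 2.57% of genes were. At an adjusted p under 0.05 without a fold limit, 7 members (18.4% of those tested) were higher against 12.4% of all genes, and 14 (36.8%) were lower against 12.6% of all genes. At an unadjusted p under 0.05 the counts were 10 higher and 17 lower. The share of all genes at that looser limit is not given here, so these counts stand without a comparison. Most members were well expressed. Among genes with a mean of at least 10 CPM, 29.1% had an adjusted p under 0.05, against 21 of 35 members (60.0%). The members were chosen with earlier results of these data known, so their shares are descriptive and were not tested against those of all genes. The groups did not overlap in CPM for 27 members, where 40.2% of all genes tested had no overlap. The median log2 fold change of the members was -0.07, against 0.00 over all genes, and the median size of the change regardless of direction was 0.224 against 0.152. DESeq2 likewise found 0 members higher and 1 lower past both limits. An exact two-sided permutation test cannot go below p = 0.10 with 3 against 3 libraries.

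**Figure D1:**
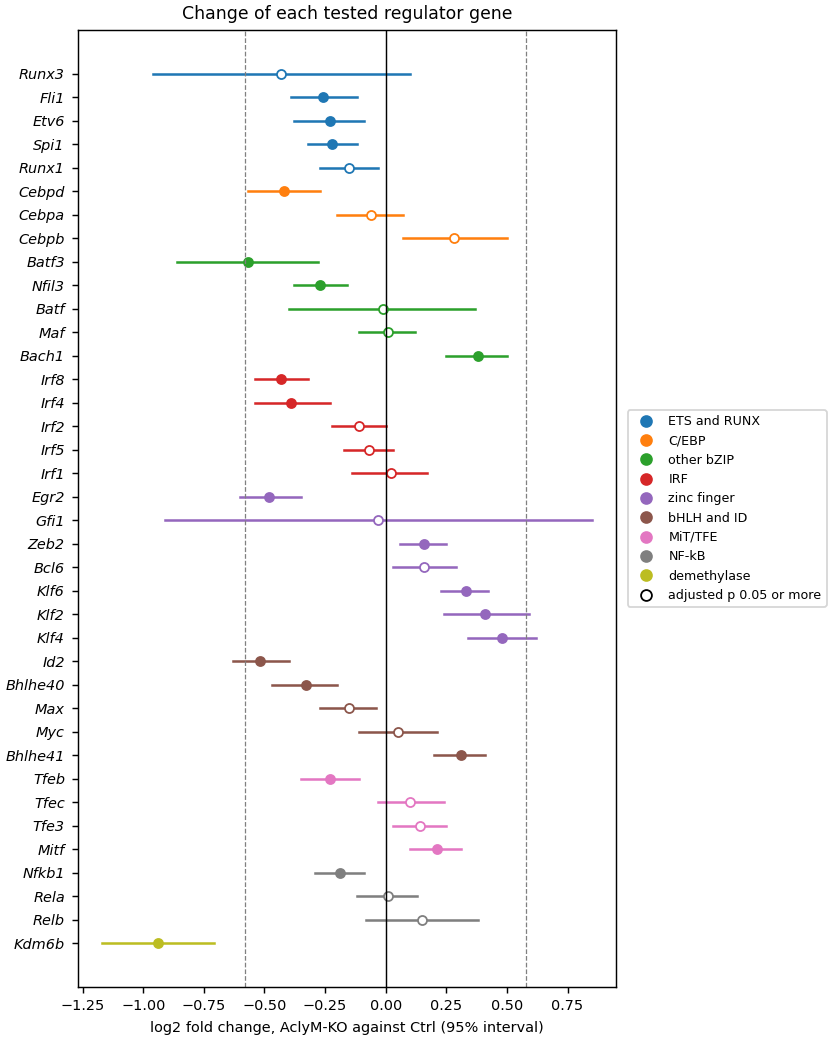
Log2 fold change in AclyM-KO against Ctrl on the horizontal axis for each of the 38 members tested, coloured by family, with bars for the 95% interval from edgeR, filled points for an adjusted p under 0.05 and dashed lines at 0.58 in either direction. Only *Kdm6b* at -0.94 lies beyond a dashed line, the 5 ETS and RUNX genes lie left of 0, and the 3 KLF genes lie between 0.33 and 0.48.

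The clearest decrease was that of *Kdm6b*, which encodes JMJD3, an enzyme that removes the repressive methyl mark from lysine 27 of histone H3. *Kdm6b* lies on the minus strand of chr11:69398508-69413675 (GENCODE M21 on GRCm38). It had 437, 391 and 337 counts in Ctrl against 214, 209 and 253 in AclyM-KO. This corresponded to 29.0 ± 3.23 and 15.1 ± 2.00 CPM (SD, n = 3 each), and its log2 fold change was -0.94 (SE 0.107, adjusted p = 1.31e-05 in edgeR). Every AclyM-KO library was below every Ctrl library. The call also held when the fold limit itself was the null hypothesis, in edgeR's glmTreat (adjusted p = 0.0441). Among the chromatin partners listed with it, *Ezh1*, a methyltransferase gene acting on the same residue and singled out after its value was seen, fell by 0.20 on the log2 scale (edgeR adjusted p = 0.0172). Its relative *Ezh2* (-0.08, edgeR adjusted p = 0.559) and *Kdm6a* (-0.01, edgeR adjusted p = 0.882) did not pass the test. Exons of an antisense gene, *Kdm6bos*, lie over 4.11% of the exonic bases of *Kdm6b*.

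Promoter sequences from the RefSeq set are shown for 5 examples picked after their values were seen. *Id2*, *Irf8* and *Egr2* fell, *Klf4* had the largest fold change of the members that rose, and *Bhlhe41* rose while its paralog *Bhlhe40* fell. Each window runs from 250 bases before to 50 bases after an annotated start, 5′ to 3′ on the strand of the gene, in build GRCm38.p6. In GENCODE M21 the genes span chr12:25093799-25097140 for *Id2*, chr8:120736358-120756694 for *Irf8*, chr10:67535475-67542188 for *Egr2* and chr4:55527143-55532466 for *Klf4*. The window of *Id2* lies inside this span, at a RefSeq start downstream of the gene's outermost GENCODE start. For *Irf8* and *Egr2*, which have several annotated starts, the most upstream window is printed. Capitals mark the E-box CACGTG, which MYC and MAX, the MiT/TFE proteins and BHLHE40 and BHLHE41 can bind, and the GC box GGGCGG or its complement CCGCCC, which Sp and KLF proteins can bind.
Id2, chr12:25096043-25096342, minus strand: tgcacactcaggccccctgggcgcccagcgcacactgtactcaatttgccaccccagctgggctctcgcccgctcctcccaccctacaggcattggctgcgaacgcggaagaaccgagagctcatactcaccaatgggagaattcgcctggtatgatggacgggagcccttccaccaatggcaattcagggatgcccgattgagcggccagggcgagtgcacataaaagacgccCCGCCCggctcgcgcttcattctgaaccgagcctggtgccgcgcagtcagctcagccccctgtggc
Irf8, chr8:120736108-120736407, plus strand: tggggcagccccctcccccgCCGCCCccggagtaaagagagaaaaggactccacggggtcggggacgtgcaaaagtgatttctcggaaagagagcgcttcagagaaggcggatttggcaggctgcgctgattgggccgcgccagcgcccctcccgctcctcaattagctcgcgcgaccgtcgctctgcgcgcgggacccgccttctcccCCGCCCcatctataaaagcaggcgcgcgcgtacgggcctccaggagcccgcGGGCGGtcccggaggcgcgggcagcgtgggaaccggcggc
Egr2, chr10:67535249-67535548, plus strand: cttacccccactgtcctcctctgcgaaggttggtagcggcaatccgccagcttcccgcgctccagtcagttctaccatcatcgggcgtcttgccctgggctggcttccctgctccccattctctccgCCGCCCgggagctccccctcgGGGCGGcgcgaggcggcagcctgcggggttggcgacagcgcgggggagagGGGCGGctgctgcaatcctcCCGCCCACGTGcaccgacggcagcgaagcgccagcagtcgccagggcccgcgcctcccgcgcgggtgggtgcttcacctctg
Klf4, chr4:55532426-55532725, minus strand: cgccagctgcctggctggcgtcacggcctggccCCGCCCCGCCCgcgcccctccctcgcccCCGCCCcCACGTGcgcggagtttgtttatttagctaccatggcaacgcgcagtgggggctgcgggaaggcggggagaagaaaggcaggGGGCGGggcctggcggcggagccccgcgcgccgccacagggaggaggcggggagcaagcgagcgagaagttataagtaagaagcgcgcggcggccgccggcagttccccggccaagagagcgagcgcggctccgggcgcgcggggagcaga
Bhlhe41, chr6:145865371-145865670, minus strand: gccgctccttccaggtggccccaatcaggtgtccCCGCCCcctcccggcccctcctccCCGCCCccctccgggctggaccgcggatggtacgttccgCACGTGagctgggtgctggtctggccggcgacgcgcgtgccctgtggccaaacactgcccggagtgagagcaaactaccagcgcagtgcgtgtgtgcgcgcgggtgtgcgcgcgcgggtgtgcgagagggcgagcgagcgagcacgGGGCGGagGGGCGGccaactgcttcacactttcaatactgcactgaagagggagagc
The *Id2* window held 1 GC box and no E-box, and the *Irf8* window held 3 GC boxes and no E-box. The windows of *Egr2*, *Klf4* and *Bhlhe41* each held 1 E-box and 4 GC boxes, and in *Egr2* the E-box shares its first base with a GC box. In *Klf4* a pair of GC boxes share a base. Windows were available for 29 members (47 windows). On either strand, CACGTG occurred in 17.0% of the member windows and 7.15% of the 32851 windows of all genes, and GGGCGG in 63.8% and 35.7%. The member windows were also richer in G and C, with a median of 62.7% against 52.7%. TTCNNNNGAA, the form of site bound by STAT6, occurred in 6.38% of member windows and 6.95% of all windows, GGAAGT, read by ETS proteins, in 21.3% and 23.8%, TTGCNNAA, read by C/EBP proteins, in 12.8% and 10.8%, and TGACTCA, read by AP-1 proteins, in 2.13% and 5.20%. These shares describe letters in the windows and were not tested. The members with a CACGTG in a window were *Klf4*, *Klf6* and *Bhlhe41*, which rose, *Egr2* and *Batf3*, which fell, and *Bcl6*, *Max* and *Runx1*, which did not pass the test. The window of *Bach1*, which rose, held 4 GC boxes and no E-box.

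Genes of the ETS and RUNX families were lower or not past the test. *Spi1*, which encodes PU.1, had 3418, 2895 and 3069 counts in Ctrl against 2934, 3012 and 3035 in AclyM-KO, or 234 ± 2.98 and 201 ± 7.11 CPM (SD, n = 3 each). Scaled to library size, every AclyM-KO library lay below every Ctrl library, and the log2 fold change was -0.22 (SE 0.0479, adjusted p = 0.0035 in edgeR). *Fli1*, an ETS factor of haematopoietic and endothelial cells, had 935, 839 and 772 counts in Ctrl against 784, 826 and 769 in AclyM-KO, and fell by 0.26 on the log2 scale (edgeR adjusted p = 0.0068). *Etv6*, an ETS repressor, had 840, 829 and 785 counts in Ctrl against 781, 828 and 728 in AclyM-KO, and fell by 0.23 (edgeR adjusted p = 0.0198). The groups did not overlap for either gene, but the call of *Etv6* was lost without AclyM-KO replicate 2 (adjusted p = 0.0542) or replicate 3 (adjusted p = 0.0882). *Runx1*, a partner of PU.1 in early myeloid development, had 1303, 1179 and 1106 counts in Ctrl against 1154, 1281 and 1180 in AclyM-KO, with a log2 fold change of -0.15 (95% interval -0.27 to -0.03, edgeR adjusted p = 0.0689, but 0.0289 without Ctrl replicate 3). *Runx3*, another gene of the family, was scarce, at 28 to 41 counts a library, and its interval ran from -0.96 to 0.10.

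Of the C/EBP genes, *Cebpd* was lower and the others did not pass the test. *Cebpd*, an inflammation-inducible factor, had 506, 412 and 468 counts in Ctrl against 361, 409 and 381 in AclyM-KO, or 34.5 ± 0.942 and 25.7 ± 0.920 CPM (SD, n = 3 each), and fell by 0.42 on the log2 scale (SE 0.0706, adjusted p = 0.000427 in edgeR). *Cebpb*, the C/EBP gene most closely tied to alternative activation and *Arg1*, had 521, 437 and 342 counts in Ctrl against 592, 556 and 611 in AclyM-KO. Its groups did not overlap in CPM, yet its log2 fold change of 0.28 (95% interval 0.07 to 0.50) had an adjusted p of 0.055 in edgeR. With each library left out its log2 fold change ranged from 0.14 to 0.35, with an adjusted p of 0.0325 without Ctrl replicate 1, 0.0135 without Ctrl replicate 2 and 0.242 without Ctrl replicate 3. *Cebpa*, which drives commitment to the granulocyte and monocyte lineages, had 3260, 2283 and 2909 counts in Ctrl against 2810, 3124 and 3038 in AclyM-KO, with overlapping groups and a log2 fold change of -0.06 (95% interval -0.20 to 0.07). With each library left out it ranged from -0.14 to -0.03, the former without Ctrl replicate 2 (adjusted p = 0.0371). *Cebpe*, a factor of late granulocyte maturation, had 5, 2 and 6 counts in Ctrl against 5, 0 and 0 in AclyM-KO and was too scarce to test. Within each library, the ratio of *Cebpb* to *Cebpd*, relative to its Ctrl mean, was 0.777 to 1.13 in Ctrl and 1.45 to 1.74 in AclyM-KO. Pairs of genes for such ratios were chosen after their values were seen, so the ratios here and below carry no test. These genes share exonic bases with opposite-strand genes. *Tmem189*, at a Ctrl mean of 165 CPM, covers 20.7% of *Cebpb*, itself at 32.3 CPM, and had a log2 fold change of -0.24 (edgeR adjusted p = 0.00352). *Spidr*, at 28.3 CPM, covers 15.0% of *Cebpd* and had one of -0.22 (edgeR adjusted p = 0.0548). The part of shared reads in these values was not tested.

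*Bach1* was higher and *Batf3* and *Nfil3* were lower among the other bZIP genes. BACH1 is a haem-regulated repressor of antioxidant and iron genes. *Bach1*, on the plus strand of chr16:87698945-87733346, had 2780, 1986 and 2398 counts in Ctrl against 3276, 3505 and 3544 in AclyM-KO, or 177 ± 13.3 and 231 ± 10.6 CPM (SD, n = 3 each), and its log2 fold change was 0.38 (SE 0.0588, adjusted p = 0.000244 in edgeR). *Batf3*, best known for its role in cross-presenting dendritic cells, had 344, 200 and 235 counts in Ctrl against 157, 223 and 200 in AclyM-KO. Its groups did not overlap after scaling, with 19.1 ± 3.62 CPM in Ctrl and 12.9 ± 1.94 CPM in AclyM-KO (SD, n = 3 each), but it varied widely between libraries. Its log2 fold change of -0.57 (SE 0.137, adjusted p = 0.00626 in edgeR) lay just inside the fold limit. It was -0.41 without Ctrl replicate 1 (adjusted p = 0.0352) and -0.46 without AclyM-KO replicate 1 (adjusted p = 0.0366), but -0.68 and -0.63 without Ctrl replicates 2 and 3 and -0.66 and -0.62 without AclyM-KO replicates 2 and 3, so that it was called in those 4 fits only. *Nfil3*, a repressor linked to the circadian clock, had 1118, 894 and 956 counts in Ctrl against 890, 914 and 936 in AclyM-KO, and fell by 0.27 on the log2 scale (edgeR adjusted p = 0.00179). *Maf*, a factor of resident and IL-10-producing macrophages, had 4486, 3352 and 3494 counts in Ctrl against 4104, 4267 and 4252 in AclyM-KO. At 281 ± 19.8 and 282 ± 8.60 CPM (SD, n = 3 each) its groups overlapped, and its log2 fold change was 0.01 (95% interval -0.11 to 0.12). *Batf*, an AP-1-like partner of IRF4, was expressed at about 6 CPM in both groups, with a log2 fold change of -0.01 and a wide interval of -0.40 to 0.37.

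**Figure D2:**
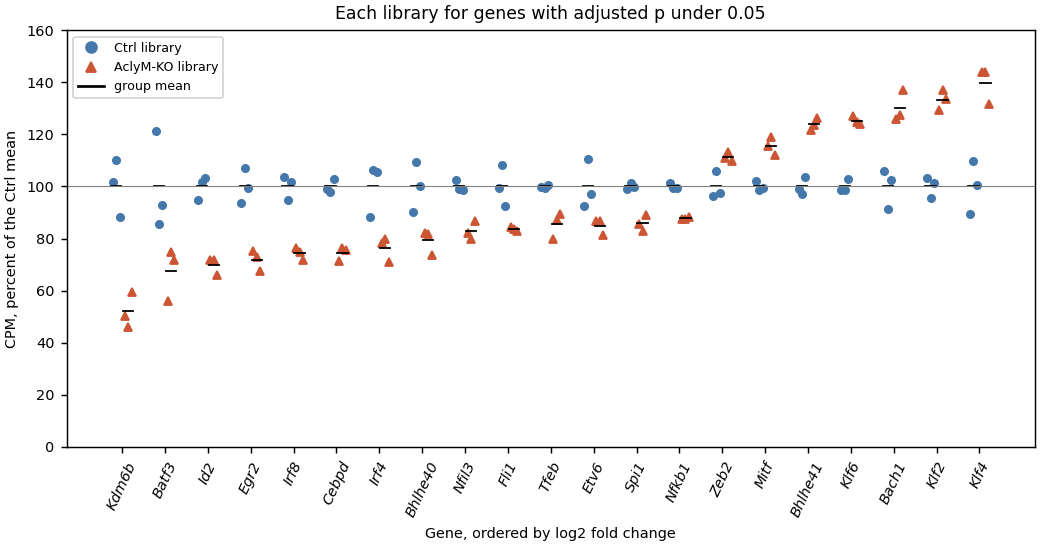
CPM of each library as a percentage of the Ctrl mean of the same gene for the 21 members with an adjusted p under 0.05, with circles for the 3 Ctrl libraries, triangles for the 3 AclyM-KO libraries and short black lines for group means. No triangle overlaps the circles of its gene, and *Batf3* has the widest spread of Ctrl libraries.

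Within the IRF family, *Irf8* and *Irf4* were lower. IRF8 directs monocyte and dendritic cell fate with PU.1. *Irf8* had 2772, 2093 and 2429 counts in Ctrl against 2016, 2104 and 1891 in AclyM-KO, or 181 ± 8.57 and 134 ± 4.11 CPM (SD, n = 3 each), and its log2 fold change was -0.43 (SE 0.0519, adjusted p = 2.36e-05 in edgeR). *Irf4*, which works downstream of STAT6 and JMJD3 in alternative activation, had 1019, 1013 and 1086 counts in Ctrl against 896, 968 and 810 in AclyM-KO, or 78.0 ± 7.96 and 59.6 ± 3.62 CPM (SD, n = 3 each), and its log2 fold change was -0.39 (SE 0.0716, adjusted p = 0.00107 in edgeR). For both genes the groups were separate in CPM. The other IRF genes did not pass the test. *Irf5*, tied to inflammatory polarization, was at 188 ± 3.76 and 179 ± 6.02 CPM (95% interval of the log2 fold change -0.17 to 0.03), *Irf1*, the interferon-gamma responder, at 126 ± 16.7 and 127 ± 1.59 CPM (-0.14 to 0.17), and *Irf2*, its antagonist, at 103 ± 4.34 and 95.5 ± 2.46 CPM, with a log2 fold change of -0.11 (adjusted p = 0.127). The ratio of *Irf8* to *Irf5* within a library, relative to the Ctrl mean, was 0.927 to 1.04 in Ctrl and 0.726 to 0.811 in AclyM-KO. Exons of *Tnpo3*, on the opposite strand, lie over 14.1% of the exonic bases of *Irf5*. *Tnpo3* had a Ctrl mean of 111 CPM and a log2 fold change of -0.04 (edgeR adjusted p = 0.616).

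The 3 Krüppel-like factor genes rose together, whereas *Egr2* fell. *Klf4*, a STAT6 partner in alternative activation, had 1290, 1310 and 1287 counts in Ctrl against 2047, 2174 and 1861 in AclyM-KO, or 87.2 to 107 and 128 to 140 CPM, and its log2 fold change was 0.48 (SE 0.0675, adjusted p = 9.71e-05 in edgeR). *Klf2*, which restrains inflammatory activation, had 261, 199 and 228 counts in Ctrl against 324, 364 and 333 in AclyM-KO, and rose by 0.41 (SE 0.0834, adjusted p = 0.00194 in edgeR). *Klf6*, which is linked to inflammatory macrophage responses, had 4448, 3664 and 4125 counts in Ctrl against 5666, 5914 and 5512 in AclyM-KO, and rose by 0.33 (SE 0.0446, adjusted p = 7.78e-05 in edgeR). In each case the lowest AclyM-KO library was above the highest Ctrl library in CPM. *Egr2*, an early response factor that IL-4 induces and that maintains alternative activation, had 2187, 2071 and 2073 counts in Ctrl against 1746, 1783 and 1558 in AclyM-KO. At 158 ± 10.8 and 114 ± 6.26 CPM (SD, n = 3 each), its log2 fold change was -0.48 (SE 0.0595, adjusted p = 3.39e-05 in edgeR). The ratio of *Klf4* to *Egr2* within a library, relative to its Ctrl mean, was 0.960 to 1.03 in Ctrl and 1.91 to 1.98 in AclyM-KO.

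*Zeb2*, which holds macrophages to their identity and was the most abundant member in CPM, had 11701, 10640 and 10567 counts in Ctrl against 13349, 14453 and 13160 in AclyM-KO, or 821 ± 43.1 and 914 ± 14.3 CPM (SD, n = 3 each). Its log2 fold change of 0.16 had an edgeR adjusted p of 0.0171, which was 0.0578 and 0.0746 without Ctrl replicates 1 and 3 and 0.0634 and 0.0911 without AclyM-KO replicates 1 and 2. *Bcl6*, a repressor that competes with STAT6 for DNA, was at 45.8 ± 0.863 CPM in Ctrl and 51.2 ± 2.5 CPM in AclyM-KO (SD, n = 3 each), with a log2 fold change of 0.16 and an adjusted p of 0.0607. *Gfi1*, a granulocyte factor, had 7 to 15 counts in each library, too few for its change to be estimated (95% interval -0.91 to 0.85).

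Of the bHLH and ID genes, *Id2* and *Bhlhe40* were lower and *Bhlhe41* was higher. ID2 lacks a DNA-binding region and holds E proteins inactive. *Id2* had 2628, 2339 and 2556 counts in Ctrl against 1974, 2095 and 1812 in AclyM-KO, or 188 ± 8.81 and 131 ± 6.09 CPM (SD, n = 3 each), and its log2 fold change was -0.52 (SE 0.0540, adjusted p = 5.77e-06 in edgeR), which is the smallest p of the members. *Bhlhe40* and *Bhlhe41* encode closely related repressors that bind the same E-box. *Bhlhe40* had 5611, 5615 and 5550 counts in Ctrl against 5064, 5329 and 4527 in AclyM-KO, and fell by 0.33 (SE 0.0642, adjusted p = 0.00137 in edgeR). *Bhlhe41* had 1172, 949 and 1091 counts in Ctrl against 1423, 1535 and 1468 in AclyM-KO, and rose by 0.31 (SE 0.0496, adjusted p = 0.000336 in edgeR). The pair of paralogs therefore moved apart. Their ratio within a library, *Bhlhe41* to *Bhlhe40* relative to the Ctrl mean, was 0.883 to 1.09 in Ctrl and 1.47 to 1.69 in AclyM-KO. The antisense gene *Gm43909* lies over 19.0% of the exonic bases of *Bhlhe41*. *Myc*, a growth regulator that IL-4 induces in macrophages, had 516, 513 and 525 counts in Ctrl against 603, 634 and 560 in AclyM-KO, which after scaling were 38.9 ± 3.64 and 40.1 ± 1.5 CPM (SD, n = 3 each). The groups overlapped, and the log2 fold change was 0.05 (95% interval -0.11 to 0.21, edgeR adjusted p = 0.686). *Max*, its obligate partner, had a log2 fold change of -0.15 (edgeR adjusted p = 0.0546), and that p was 0.0351 and 0.0366 without Ctrl replicates 2 and 3.

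The MiT/TFE genes, which encode E-box factors that control lysosome biogenesis, split in direction. *Mitf* had 2136, 1704 and 1850 counts in Ctrl against 2384, 2614 and 2309 in AclyM-KO, or 141 ± 2.61 and 163 ± 4.99 CPM (SD, n = 3 each), and rose by 0.21 on the log2 scale (edgeR adjusted p = 0.00585). *Tfeb* had 1053, 868 and 946 counts in Ctrl against 832, 963 and 933 in AclyM-KO, or 71.3 ± 0.426 and 60.9 ± 3.71 CPM (SD, n = 3 each), and fell by 0.23 (edgeR adjusted p = 0.00766, 0.0598 without AclyM-KO replicate 1). Neither gene had overlapping groups. Their ratio within a library, *Mitf* to *Tfeb* relative to the Ctrl mean, was 0.986 to 1.02 in Ctrl and 1.25 to 1.45 in AclyM-KO. *Tfe3* had a log2 fold change of 0.14 (edgeR adjusted p = 0.0514, but 0.0182 without Ctrl replicate 2) and *Tfec*, the form found mainly in macrophages, one of 0.10 (95% interval -0.03 to 0.24). *Mitf* and *Tfeb* have several annotated transcripts, and the row with the fewest counts held 88.9% and 88.7% of the counts of the row used for *Mitf* in Ctrl and AclyM-KO, and 86.8% and 88.9% for *Tfeb*.

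Of the NF-kB genes, *Nfkb1*, which encodes the precursor of p50, had 2072, 1681 and 1801 counts in Ctrl against 1771, 1876 and 1779 in AclyM-KO, or 138 ± 1.72 and 121 ± 0.668 CPM (SD, n = 3 each). The groups were separate, and the gene fell by 0.19 on the log2 scale (SE 0.0466, adjusted p = 0.00792 in edgeR). *Rela*, which encodes the transactivating p65 subunit, was at 72.1 ± 3.70 and 72.6 ± 4.48 CPM (SD, n = 3 each), with a log2 fold change of 0.01 (95% interval -0.12 to 0.13). *Relb*, the subunit of the alternative pathway, was at 16.9 ± 2.19 and 18.8 ± 1.75 CPM (SD, n = 3 each), with overlapping groups (95% interval -0.08 to 0.38).

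Per length of transcript, the members spanned more than 2 orders of magnitude. In Ctrl the highest means were those of *Id2* at 148 CPM per kb, *Zeb2* at 146, *Bhlhe40* at 135, *Spi1* at 115 and *Irf5* at 111 CPM per kb. *Cebpa* was at 79.7 CPM per kb and *Klf6* at 72.1. At the other end were *Kdm6b* at 4.36 CPM per kb, *Runx3* at 0.690, *Gfi1* at 0.301 and *Cebpe* at 0.257. In AclyM-KO the level of *Id2* was 103 CPM per kb and that of *Zeb2* 163 CPM per kb, so that *Zeb2* stood first. *Klf4*, at 32.1 CPM per kb in Ctrl, was below *Egr2*, at 53.3, whereas in AclyM-KO *Klf4* was at 44.8 and *Egr2* at 38.3 CPM per kb. Lengths are those of the transcript used for each gene or, where transcripts tied for the highest count, of the longest of them. For *Bhlhe41* the tied transcripts are 744 and 6133 bases long, so its level per length depends on this choice.

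**Figure D3:**
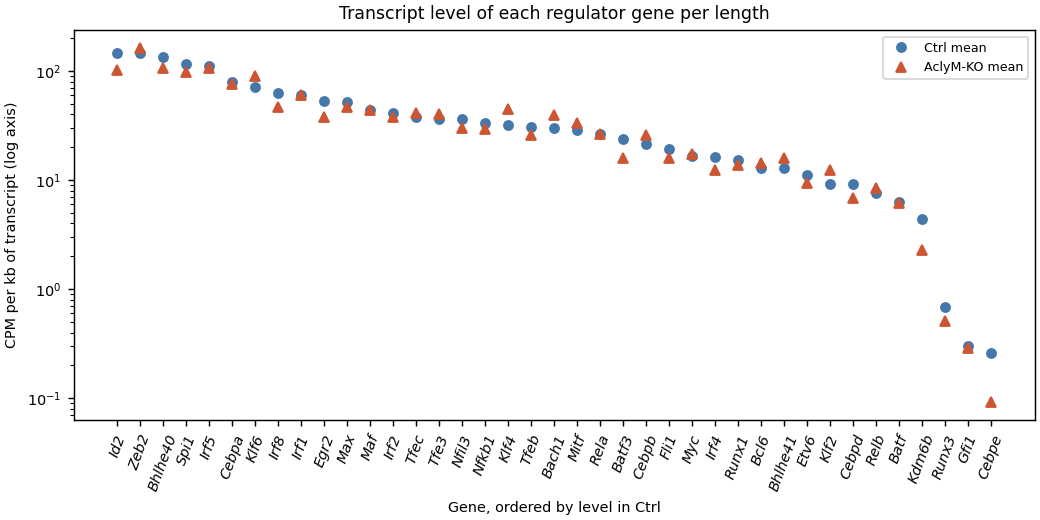
Mean level of each of the 39 members in CPM per kb of transcript on a log axis, with circles for Ctrl and triangles for AclyM-KO, ordered by the Ctrl level. The levels fall from 148 CPM per kb for *Id2* to 0.257 for *Cebpe* in Ctrl, and circle and triangle lie close together for most genes.

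Partners and target genes of the members were followed in 8 hand-written lists, which draw on textbook knowledge. The lists were chosen with earlier results of these data known, so their shares and medians are descriptive and were not tested. Of 46 partners and antagonists tested, 8 were higher and 10 lower at an adjusted p under 0.05, with a median log2 fold change of -0.01 against 0.00 over all genes. These are 17.4% and 21.7% of the list, beside 12.4% and 12.6% of all genes tested. The called genes, both lower, were *Mxd1* (-0.63, edgeR adjusted p = 4.55e-06) and *Mxi1* (-0.77, adjusted p = 0.00012), which encode MAX partners that oppose MYC. They are 4.35% of the list, beside 5.55% called among all genes tested. Of the other MAX partners listed, *Mxd4* fell inside the fold limit (-0.23, adjusted p = 0.0488). *Mxd3* (-0.44, adjusted p = 0.0849), *Mnt* (-0.04, adjusted p = 0.726) and *Mga* (-0.09, adjusted p = 0.374) did not pass the test. *Mxd1* was at 48.7 ± 2.56 CPM in Ctrl and 31.4 ± 0.581 CPM in AclyM-KO (SD, n = 3 each). The ratio of *Myc* to *Mxd1* within a library, relative to its Ctrl mean, was 0.844 to 1.09 in Ctrl and 1.56 to 1.63 in AclyM-KO. Of 20 MYC target genes, mostly of ribosome biogenesis, 6 (30%) were higher and 1 (5%) lower, with a median of 0.17. The one lower gene, *Ldha* of glycolysis (-0.59, adjusted p = 2.93e-07), was also the one called, and its call was lost without Ctrl replicate 2 (-0.58), Ctrl replicate 3 (-0.57) or AclyM-KO replicate 3 (-0.56), where it came just inside the fold limit.

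Of 20 genes regulated by PU.1 and C/EBP proteins, 1 (5%) was higher and 10 (50%) were lower, beside 12.4% and 12.6% of all genes tested. In either direction 55.0% of the list passed, beside 29.1% of all genes with a mean of at least 10 CPM. The median log2 fold change of the list was -0.13, with values from -0.39 to 0.22, inside the fold limit. Among single genes, chosen after their values were seen, *Csf3r*, the receptor for granulocyte colony-stimulating factor, fell by 0.39 (edgeR adjusted p = 0.000144), *Csf1r*, the receptor for the macrophage growth factor, fell by 0.20 (adjusted p = 0.00366), and *Tlr4*, the endotoxin receptor, rose by 0.22 (adjusted p = 0.0024). Of 14 genes tied to EGR2 or BCL6, 1 (7.14%) was higher and 7 (50%) were lower, with a median of -0.14. The list does not separate targets of EGR2 from those of BCL6, so these values describe neither factor alone. Past both limits, 28.6% of the list was called, beside 5.55% of all genes tested. Those called, each lower, were *Socs2* (-1.33, adjusted p = 2.16e-05), *Cish* (-0.80, adjusted p = 2.19e-07), *Cxcl16* (-0.68, adjusted p = 0.000145) and *Mgl2* (-0.59, adjusted p = 9.26e-07). *Mgl2* was inside the fold limit without Ctrl replicate 2 (-0.55). *Socs2* and *Cish* encode feedback inhibitors of cytokine receptors and are STAT-responsive genes.

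BACH1 represses its targets. Of 12 such genes, 8 (66.7%) were higher and 1 (8.33%) was lower, beside 12.4% and 12.6% of all genes tested. The median log2 fold change of the list was 0.44, while *Bach1* itself was higher as given above. The 3 genes that did not pass the test were *Hmox1* (-0.05, edgeR adjusted p = 0.436), *Slc7a11* (0.13, adjusted p = 0.44) and *Blvrb* (-0.01, adjusted p = 0.883). The part of BACH1 in these values was not tested. Past both limits, 41.7% of the list was called, beside 5.55% of all genes tested. The genes with the smallest p among the 5 called were *Gclc*, an enzyme of glutathione synthesis (0.66, adjusted p = 1.66e-06), *Srxn1*, sulfiredoxin (0.61, adjusted p = 1.51e-06), *Nqo1*, a quinone reductase (1.21, adjusted p = 0.00237), and, lower, *Slc40a1*, the iron exporter ferroportin (-0.85, adjusted p = 1.51e-06). *Srxn1* was inside the fold limit without Ctrl replicate 2 (0.55), and *Me1*, the fifth gene called, did not pass the test without AclyM-KO replicate 1 (adjusted p = 0.0728). *Srxn1* was at 92.8 ± 6.68 CPM in Ctrl and 142 ± 2.73 CPM in AclyM-KO, and *Slc40a1* at 71.9 ± 6.50 and 39.9 ± 4.11 CPM (SD, n = 3 each). Of the 20 MiT/TFE targets of the lysosome, 8 (40.0%) were higher and 4 (20.0%) lower (median 0.07), with *Ctsk*, cathepsin K, called higher (1.04, adjusted p = 6.70e-07) and *Acp5*, an acid phosphatase, called lower (-0.63, adjusted p = 0.00433). The call of *Acp5* was lost without Ctrl replicate 3 (-0.54) or AclyM-KO replicate 3 (-0.53).

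Of 20 NF-kB target genes, 4 (20.0%) were higher and 4 (20.0%) lower (median 0.11), beside 12.4% and 12.6% of all genes tested. The costimulatory receptor *Cd40* was called higher (0.62, edgeR adjusted p = 0.00012), a call lost without Ctrl replicate 2 (0.58). Of 19 IRF target genes tested, 3 (15.8%) were higher and 3 (15.8%) lower, near the shares of all genes. Their median was 0.17, and their log2 fold changes, from -0.50 to 0.40, lay inside the fold limit. A target list names genes that a factor is known to act on, and other factors act on the same genes.

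**Figure D4:**
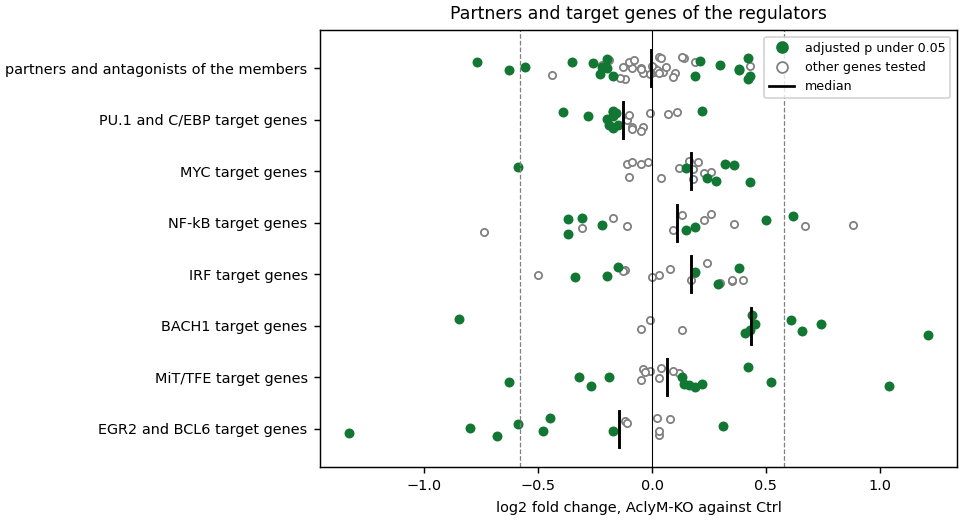
Log2 fold change in AclyM-KO against Ctrl for each gene tested in the 8 lists of partners and targets, with filled points for an adjusted p under 0.05, a black line for the median of each list and dashed lines at 0.58 in either direction. The medians run from -0.14 for EGR2 and BCL6 target genes to 0.44 for BACH1 target genes, and vertical position within a list carries no value.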

How the data were processed

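The authors sequenced stranded mRNA libraries, mapped the reads on mm10 with STAR (2.5.2b in the submitters' processing notes, which also name CASAVA 1.8.2) and deposited raw counts per RefSeq transcript. The counting program is not given in the sources used here. Of 35745 rows, 35440 were matched to symbols through RefSeq (GRCm38.p6) and 188 through GENCODE M21, and the 117 others (0.370% to 1.38% of a library's counts) were left out. Reads were counted on every isoform containing them, so the row with the highest total was kept for each gene, although the design had assumed counts per gene. Of the members, 21 had 1 row, and 8 of the 18 with several rows had identical counts on them.

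The main test was the quasi-likelihood test of edgeR 4.0.16 under R 4.3.3 (filterByExpr, TMM, genotype alone in the model), with p-values adjusted after Benjamini-Hochberg over 12023 genes and a common biological coefficient of variation of 0.0588. CPM use TMM-scaled library sizes, which set the precision together with the counts printed. Alternatives were DESeq2 1.42.0, limma-voom (limma 3.58.1), glmTreat, other scalings, filters and fold limits, summed rows, a replicate term and the removal of each library. No library was a copy of another, as the chi-square per gene between libraries of one group was 2.27 to 7.21.

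The members, the partner, target and marker lists and the tests were chosen with earlier results of these data known. Every member is named. Counts per library are given for members with an adjusted p under 0.05 and for 9 lineage and IL-4 regulators whether or not they passed (*Spi1*, *Cebpa*, *Cebpb*, *Irf8*, *Maf*, *Runx1*, *Klf4*, *Egr2* and *Myc*), and of each list at most the 4 called genes with the smallest p are named, except where stated. Single marker genes were named after their values were seen. The procedure was tested on simulated data with 200 changed genes among 12023, of which 176 (88.0%) were recovered, with 9 false calls. Promoter windows were not used for 10 members, *Spi1*, *Kdm6b*, *Myc*, *Maf*, *Fli1*, *Cebpd*, *Cebpe*, *Bhlhe40*, *Nfkb1* and *Relb*.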

Additional observations from a re-analysis of the deposited data

How the results depend on the processing

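The count of members called higher was 0 under every alternative, and the count with an adjusted p under 0.05 ranged from 19 to 25 over the alternatives. Members called lower were 2 with library size alone as the scaling, when *Batf3* joined *Kdm6b*, 0 with a fold limit of 1, and 1 to 2 with each library left out. The lists held 15 called genes, 4 with glmTreat and 3 with a fold limit of 1, and 12 to 16 with each library left out. Directions turned only for members close to 0. With library size alone the log2 fold changes of *Maf*, *Irf1* and *Rela* were -0.01, -0.00 and -0.01, and that of *Gfi1* was 0.05 with limma-voom and 0.01 with summed rows. With each library left out they ran from -0.16 to 0.13 for *Batf*, -0.04 to 0.06 for *Maf*, -0.08 to 0.12 for *Irf1*, -0.32 to 0.40 for *Gfi1*, -0.03 to 0.10 for *Myc* and -0.02 to 0.06 for *Rela*. The causes were not tested. Over all alternatives and members, 526 fitted values kept direction and side of the threshold, 16 newly passed it (*Tfe3*, *Max*, *Cebpb*, *Runx1* and *Cebpa*), 7 no longer passed it (*Zeb2*, *Etv6* and *Tfeb*) and 19 turned direction. Same-numbered libraries of the groups did not deviate together (correlations -0.07, 0.05 and -0.03). The labels do not say whether the numbers pair them, and these values cannot decide it, since pairs with little shared deviation would look alike. With a replicate block, 21 members had an adjusted p under 0.05, 0 were called higher and 1 lower. Fits with 1 library left out assume the same spread in both groups. The list counts were added after seeing the data. Depth limits *Cebpe*, *Gfi1* and *Runx3*.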
